A study of Homo sapiens with 32 samples.

Results

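LNCaP, an androgen-dependent human prostate cancer cell line, carried an shRNA against CSN5 (shCSN5) or a scramble shRNA, and the RNA of every gene was compared between the 2 conditions. The comparison took the 4 LNCaP libraries of the knockdown experiment, 2 with shCSN5 and 2 with scramble, out of 32 libraries in the series. All 57445 genes of their count table belonged to it, and 14920 had enough counts to be tested. Both groups were shRNA-infected cells of the same line, obtained from ATCC, from which total RNA was sequenced. The labels name a single shRNA against CSN5 and no time after infection, so loss of CSN5 and effects of this shRNA on other transcripts cannot be told apart. Nothing in the labels says that the 2 libraries of a group were separate cultures, so the p values below measure the spread between these libraries. The effect in LNCaP was also set against shCSN5 over scramble in PC3, an androgen-independent line, against shCSN5 over scramble in C4-2, a castration-resistant line derived from LNCaP, and against the CSN5 inhibitor CSN5i-3 at 5 µM over DMSO in LNCaP, each with 2 libraries per group.

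COPS5 encodes CSN5, the protease within the COP9 signalosome, a complex that removes the ubiquitin-like protein NEDD8 from cullins. Cullins are the scaffolds of cullin-RING ubiquitin ligases, which need cycles of NEDD8 attachment and removal to exchange substrate receptors and to mark proteins such as cell cycle inhibitors, replication licensing factors and transcription factors for the proteasome. These libraries measured RNA, so a change in the stability of such a protein is outside what they can show, and only the transcripts that follow it are seen.

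COPS5 checked the labels. It stood at 2.9 and 1.79 CPM in the shCSN5 libraries, against 53.4 and 52.7 CPM in the scramble libraries. Both shCSN5 libraries lay far below both scramble libraries, a log2 fold change of -4.50 ± 0.26 (SE, n = 2 libraries per group, edgeR adjusted p = 0.00021). CPM are counts scaled to the library's size with TMM factors, log2 fold changes are shCSN5 over scramble, and a gene is called, or said to have risen or fallen, where its adjusted p in edgeR's quasi-likelihood test was under 0.05. The marker sums that follow are scaled to library totals alone, without TMM factors. LNCaP-type luminal markers summed to between 8527 and 9369 CPM with shCSN5, against 9003 to 9049 CPM with scramble, with all 10 markers counted. Of the leukocyte markers PTPRC, CD3E and MS4A1 had no count, of the fibroblast markers DCN and POSTN had none, and of the basal markers KRT5 had none. PC3-type markers summed to 118 to 127 CPM with shCSN5, against 129 CPM with scramble. The leukocyte, fibroblast and basal lists summed to 2.86 to 3.08, 23.4 to 30.4 and 1.47 to 1.90 CPM with shCSN5, against 0.648 to 0.985, 19.8 to 20.8 and 0.421 to 0.422 CPM with scramble, and 2 of 3 tested leukocyte markers rose, while 1 of 4 tested fibroblast markers rose and 1 fell. Over all genes tested 18.3% rose and 17.4% fell, and the part of other cells in any result was not tested. RNA was pooled over cells, so fewer cells in a phase of the cycle and less RNA per cell cannot be told apart.

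Library totals ran from 27952055 to 30876709 counts. The 2 scramble libraries differed little beyond counting error and the 2 shCSN5 libraries differed strongly, with a chi-square per gene of 71.3 for shCSN5 and 1.83 for scramble. Of 7264 genes with a mean of at least 20 CPM, 336 were more than 2-fold lower in shCSN5 1 than in shCSN5 2, 0 were more than 2-fold higher, and 0 differed by that much between the scramble libraries. The difference moved with GC content, and also with transcript length and the share of mitochondrial reads. With genes of at least 5 CPM ordered by GC content and divided into 5 bins, from the lowest to the highest, the median log2 ratio of shCSN5 1 over shCSN5 2 was 0.31, 0.29, 0.19, -0.10 and -0.67, while that of scramble 1 over scramble 2 stayed between -0.01 and 0.02. The proton pump subunit ATP6V0C, for example, had 4.99 and 44.1 CPM in shCSN5 1 and 2 and 16.8 and 17.1 CPM in scramble 1 and 2, and the cytokine MIF had 20.1 and 132 CPM in shCSN5 1 and 2 and 94.8 and 84.4 CPM in scramble 1 and 2. The fitted effect moved with GC as well, with medians of 0.05, 0.26, 0.15, -0.12 and -0.24 over the same bins. In 5 bins by transcript length, from the shortest to the longest, the median log2 ratio of shCSN5 1 over shCSN5 2 was 0.03, 0.08, 0.14, 0.18 and 0.25, and that of the fitted effect -0.13, -0.03, 0.05, 0.07 and 0.04. Mitochondrially encoded genes took 5.09% and 3.90% of the counts in shCSN5 1 and 2, against 3.63% and 3.85% in scramble 1 and 2. The part of GC content, length or mitochondrial reads in the change of a given gene was not tested.

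**Figure D1:**
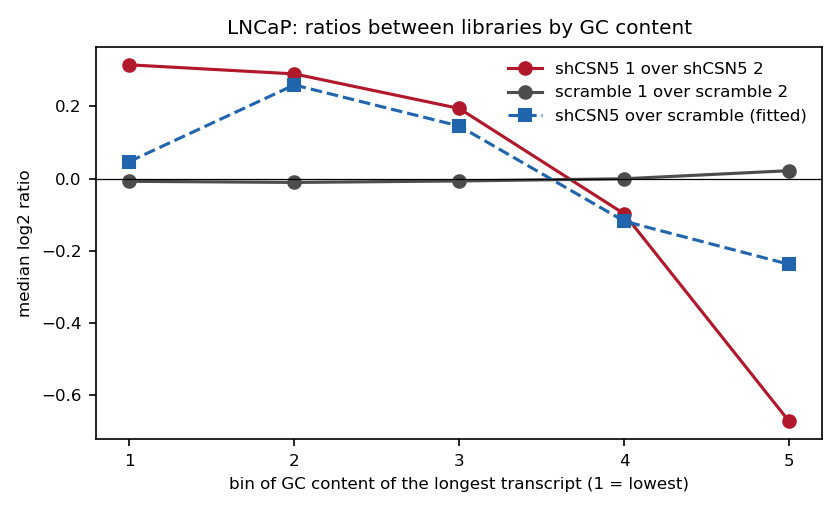
Median log2 ratio between libraries (y axis) in 5 bins of genes by the GC content of their longest transcript (x axis, 1 is lowest). Red circles are shCSN5 1 over shCSN5 2, grey circles scramble 1 over scramble 2 and blue squares the fitted change of shCSN5 over scramble. The shCSN5 pair goes down to -0.67 in the highest bin while the scramble pair stays near 0.

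Of the 14920 genes tested, 35.7% were called, 2733 (18.3%) higher and 2593 (17.4%) lower with shCSN5, and 1282 of the higher and 1423 of the lower genes changed at least 2-fold. The median change of all genes was -0.01. At least 8-fold changes were called for 167 genes that rose and 182 that fell. In 72.6% of all genes tested the 2 groups did not overlap, so a lack of overlap alone says little about a gene here. The number called was 2103 without scramble 1 and 2085 without scramble 2, against 10466 without shCSN5 1 and 11260 without shCSN5 2. With the GC correction, chosen after the data were seen, it was 8627, of which 5223 were calls of the uncorrected fit in the same direction. A fit without shCSN5 1 or without shCSN5 2 assumes that the shCSN5 library left varies like the scramble pair. Calls from such fits, here and below, leave out the spread between the shCSN5 libraries. With 1 scramble library left, the spread in the LNCaP comparison comes from the shCSN5 pair alone, which differed more (chi-square per gene 71.3 against 1.83). A call lost there does not by itself show that the change rests on 1 scramble library.

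The largest increases were genes nearly silent in scramble cells. ADGRF1, an adhesion G protein-coupled receptor, stood at 15.8 and 13.8 CPM with shCSN5, against 0.0958 and 0.278 CPM with scramble (6.30 ± 0.36, edgeR adjusted p = 0.00021). MMP12, a matrix metalloproteinase, was at 11.6 and 9.32 CPM with shCSN5, against 0.0958 and 0.209 CPM with scramble, and EDN1, the vasoconstrictor peptide endothelin-1, at 12.8 and 11.7 CPM with shCSN5, against 0.16 and 0.244 CPM with scramble. Their scramble levels rest on few reads, 11 counts in both libraries together for ADGRF1, and both shCSN5 libraries were far above both scramble libraries. Others rose from a higher level. EGLN3, a prolyl hydroxylase of the oxygen sensing pathway, had 907 and 805 CPM with shCSN5, against 25.1 and 25.9 CPM with scramble (5.07 ± 0.14, edgeR adjusted p = 0.00015), and TNFSF15, a cytokine of the TNF superfamily, had 532 and 432 CPM with shCSN5, against 15.1 and 14.9 CPM with scramble (5.0 ± 0.17). The remaining 10 of the 15 largest increases under the naming rule were TCIM (5.52), STOM (5.22), SYTL2 (4.52), LHFPL2 (4.48), STMN4 (4.44), GDF15 (4.32), MMP7 (4.27), BNIPL (4.02), LIPH (4.01) and LIPG (3.88), all as log2 fold changes. They include LIPH and LIPG, which are phospholipases, and STOM, an integral membrane protein.

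**Figure D2:**
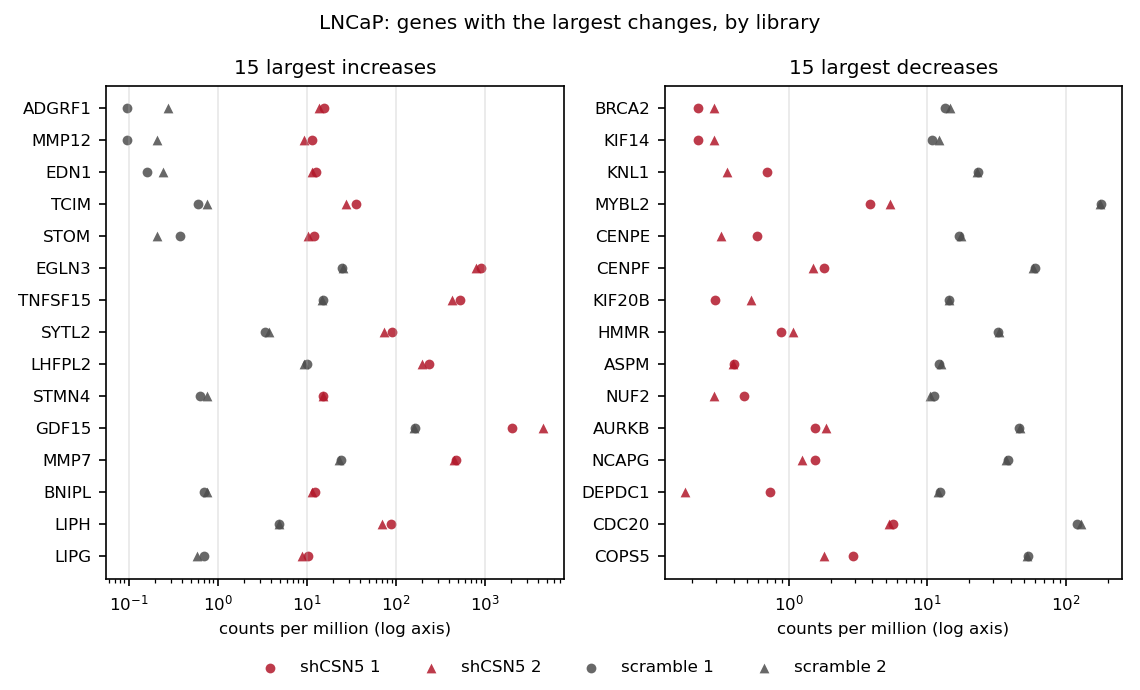
CPM (x axis, log scale) in each LNCaP library for the 15 largest increases (left) and the 15 largest decreases (right) under the naming rule. Red marks are shCSN5 libraries and grey marks scramble libraries, circles replicate 1 and triangles replicate 2. In every gene shown the 2 red marks lie on one side of the 2 grey marks, and GDF15, DEPDC1 and COPS5 show the shCSN5 libraries apart from each other.

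Among the 10 COP9 signalosome subunits, 3 fell and 1 rose, COPS5 included, beside 17.4% lower and 18.3% higher of all genes. COPS6, the partner of CSN5 within the complex that also carries an MPN domain, was at 159.9 and 161 CPM with shCSN5, against 245 and 243 CPM with scramble (-0.60 ± 0.11, edgeR adjusted p = 0.0093). COPS2 was at 41.5 and 32.6 CPM with shCSN5, against 57 and 59.1 CPM with scramble, and COPS8, a small subunit, at 119 and 94.7 CPM with shCSN5, against 64.2 and 68.6 CPM with scramble. The groups did not overlap for these 3 subunits, with COPS2 lower (-0.65) and COPS8 higher (0.69) in shCSN5 cells, and the changes were far smaller than that of COPS5. The calls of COPS2, COPS6 and COPS8 were lost when a scramble library was left out (1 subunit called lower and 0 higher in either case). Of 22 cullins, NEDD8 enzymes and regulators, 7 rose and 2 fell. The scaffold CUL4A was at 195 and 173 CPM with shCSN5, against 127 and 126 CPM with scramble (0.54 ± 0.12, edgeR adjusted p = 0.019), and UBE2F, a NEDD8-conjugating enzyme that acts on CUL5, was at 44.3 and 35.9 CPM with shCSN5, against 21 and 22 CPM with scramble (0.90 ± 0.17). CUL5 itself fell, to 23.9 and 17.4 CPM with shCSN5, against 37.2 and 38 CPM with scramble. The median change of the 22 was 0.170, against 0.152 without scramble 1 and 0.173 without scramble 2. None of these 9 calls was kept without scramble 1 or without scramble 2.

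Of 26 substrate receptors of cullin ligases 6 rose and 6 fell, and the 6 that fell include receptors that dividing cells use. Of all genes tested 18.3% rose and 17.4% fell. DTL, the CUL4 receptor that marks CDT1 for destruction in S phase, had 4.91 and 3.33 CPM in the shCSN5 libraries, against 58.5 and 57.5 CPM in the scramble libraries. SKP2, the CUL1 receptor for the CDK inhibitor p27, had 17.6 and 15.1 CPM in the shCSN5 libraries, against 38.3 and 42.3 CPM in the scramble libraries. The shCSN5 libraries were below the scramble libraries for both, at -3.81 ± 0.23 and -1.30 ± 0.16 on the log2 scale (edgeR adjusted p = 0.00023 and 0.0026). CCNF, the cyclin that serves as an F-box receptor, was at 23.8 and 30.4 CPM with shCSN5, against 72.9 and 70.8 CPM with scramble (-1.41), and FBXO5, an inhibitor of the anaphase-promoting complex, at 3.56 and 2.72 CPM with shCSN5, against 16.3 and 15.4 CPM with scramble (-2.34). In the other direction FBXO32, an F-box protein known from muscle atrophy, was at 20.6 and 14.9 CPM with shCSN5, against 3.9 and 4.49 CPM with scramble (2.08 ± 0.22, edgeR adjusted p = 0.0015). Without scramble 1, 1 of the 26 was called higher and 3 lower, and without shCSN5 1, 12 were called higher and 11 lower.

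Genes of DNA replication fell, beside 17.4% lower and 18.3% higher of all genes tested. Of 23 genes that license and fire replication origins 19 fell and 0 rose, and of 32 genes of the replication fork and of nucleotide supply 31 fell and 0 rose, with medians of -2.35 and -1.70 on the log2 scale beside -0.01 over all genes tested. MCM7, a subunit of the replicative helicase, was at 80.9 and 83.6 CPM with shCSN5, against 540.1 and 529 CPM with scramble (-2.70 ± 0.12, edgeR adjusted p = 0.00015). CDC45, which activates that helicase, was at 3.12 and 4.3 CPM with shCSN5, against 61.2 and 61.1 CPM with scramble (-4.04 ± 0.21), and CDC6, which loads it, at 13.6 and 11.3 CPM with shCSN5, against 104 and 107 CPM with scramble (-3.08). All of these were 5-fold or more below scramble in both libraries. RRM2, a ribonucleotide reductase subunit that makes deoxynucleotides, was at 14.6 and 10.5 CPM with shCSN5, against 194 and 197 CPM with scramble (-3.96 ± 0.20, edgeR adjusted p = 0.00016). CDT1, the licensing factor that DTL targets, has a GC content of 64.9% and differed between the shCSN5 libraries, at 1.58 and 5.59 CPM with shCSN5, against 40.03 and 42 CPM with scramble (-3.51 ± 0.52, edgeR adjusted p = 0.0044). In CDT1 the groups still did not overlap. The fork genes called lower numbered 27 without scramble 1 and 26 without scramble 2.

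Genes of mitosis fell, where 17.4% of all genes tested were called lower and 18.3% higher. Of 26 mitotic kinases, cyclins and checkpoint genes 23 fell, of 26 kinetochore and centromere genes 26, of 22 mitotic kinesins and spindle genes 22, and of 15 condensin and cohesin genes 13, and 0 members of the 4 lists rose. The list medians were -3.17, -3.47, -3.95 and -1.76. PLK1, a kinase that drives mitotic entry, stood at 3.78 and 4.19 CPM in the shCSN5 libraries, against 86.9 and 87.5 CPM in the scramble libraries. AURKB, the kinase of the chromosomal passenger complex, stood at 1.54 and 1.86 CPM in the shCSN5 libraries, against 46.1 and 46.8 CPM in the scramble libraries. CDC20, the activator of the anaphase-promoting complex, stood at 5.61 and 5.31 CPM in the shCSN5 libraries, against 121 and 128 CPM in the scramble libraries. Each was more than 20-fold below scramble in both libraries, at -4.45 ± 0.17, -4.76 ± 0.19 and -4.51 ± 0.16 on the log2 scale (edgeR adjusted p = 0.00015 for PLK1). CDK1, the main mitotic kinase, fell less, to 21.7 and 16.8 CPM with shCSN5, against 97.6 and 94.8 CPM with scramble (-2.32 ± 0.18, edgeR adjusted p = 0.00046). The outer kinetochore protein KNL1 was at 0.697 and 0.358 CPM with shCSN5, against 23 and 22.7 CPM with scramble (-5.43 ± 0.29) and the kinetochore motor CENPE at 0.587 and 0.323 CPM with shCSN5, against 17 and 17.5 CPM with scramble (-5.24 ± 0.28). HMMR, a protein of the spindle, was at 0.88 and 1.08 CPM with shCSN5, against 32.2 and 32.8 CPM with scramble (-5.05 ± 0.20), and ASPM, of the spindle poles, at 0.403 and 0.394 CPM with shCSN5, against 12.1 and 12.6 CPM with scramble (-4.94 ± 0.23). In these 4 genes the shCSN5 libraries held at most 1.08 CPM.

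Of 20 homologous recombination and Fanconi genes 18 fell and 0 rose (median -2.80), beside 17.4% lower and 18.3% higher of all genes tested. BRCA2, a mediator of homologous recombination, showed the largest decrease under the naming rule, at 0.22 and 0.287 CPM with shCSN5, against 13.4 and 14.5 CPM with scramble (-5.76 ± 0.25, edgeR adjusted p = 0.00015). Of 16 genes of mismatch, base and nucleotide excision repair 8 fell and 2 rose with a median of -0.38, and 3 were called lower without scramble 1. LMNB1, the nuclear lamin B1, was at 16.4 and 15.5 CPM with shCSN5, against 193 and 195 CPM with scramble (-3.60 ± 0.14, edgeR adjusted p = 0.00015), and 13 of the 16 lamina and chromatin genes of its list fell. The 9 lists of replication, mitosis, recombination, E2F and lamina genes hold 200 tested genes, of which 177 fell and 2 rose, and 79 of the 182 genes that fell at least 8-fold are among them (43.4%). The median log2 ratio of shCSN5 1 over shCSN5 2 in these 200 genes was 0.17.

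Of 20 E2F, pocket protein and MuvB genes, which switch the transcription of these lists on and off, 12 fell and 2 rose. Among all genes tested 17.4% fell and 18.3% rose. MYBL2, which activates mitotic genes with the MuvB complex, was at 3.85 and 5.34 CPM with shCSN5, against 179.7 and 176 CPM with scramble (-5.27 ± 0.21, edgeR adjusted p = 0.00015). FOXM1, its partner in the second phase of that programme, was at 20.8 and 20.5 CPM with shCSN5, against 216 and 226 CPM with scramble (-3.42 ± 0.13), and E2F1, an activator of replication genes, at 10.9 and 13.9 CPM with shCSN5, against 122 and 122 CPM with scramble (-3.30 ± 0.18). All 3 were at least 8-fold below scramble in both libraries. RBL2, the pocket protein p130 of the repressive DREAM complex of resting cells, went the other way, to 206 and 173 CPM with shCSN5, against 89.7 and 94.2 CPM with scramble (1.04 ± 0.14, edgeR adjusted p = 0.0031, and 0.0615 without scramble 1). Among 7 CDK inhibitors 3 rose and 1 fell, with a median of -0.15. CDKN1A, which encodes p21, was at 1721 and 1984 CPM with shCSN5, against 307 and 310.2 CPM with scramble (2.59 ± 0.13, edgeR adjusted p = 0.00016), and CDKN2B, which encodes p15, was at 8.14 and 7.21 CPM with shCSN5, against 1.02 and 0.939 CPM with scramble (2.96 ± 0.21). CDKN1B, the p27 gene, was at 80.8 and 79.4 CPM with shCSN5, against 39.5 and 39.1 CPM with scramble (1.03), and its call was lost when either scramble library was left out. CDKN2C, the p18 gene, fell to 6.89 and 7.53 CPM with shCSN5, against 24.7 and 25 CPM with scramble (-1.78 ± 0.16). Of 8 G1 cyclins and their kinases 4 fell and 0 rose, with 3 lower without scramble 1 and 8 lower without shCSN5 1.

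Proximal promoters of the fallen genes were searched for the letters of elements known from cell cycle genes, and those of 4 of the 15 largest decreases and of MCM7 are shown because they hold such letters before the start of the gene, so they were picked for their matches. Motifs were searched on both strands in 250 bases before to 50 after the start, as the CHR element TTTGAA, the CCAAT box under its own letters, and the AP-1 site TGANTCA. E2F sites were searched as TTCCCGC and as the like forms TTGGCGC and also TTCGCGC or else TTGCCGC. Motifs may overlap each other. A window was found in RefSeq (GRCh38.p14) for 10851 of the 14920 genes tested. Below are the 120 bases before the start, 5′ to 3′ on the gene's own strand, with motif matches in capitals.

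HMMR (chr5:163460512-163460631, + strand): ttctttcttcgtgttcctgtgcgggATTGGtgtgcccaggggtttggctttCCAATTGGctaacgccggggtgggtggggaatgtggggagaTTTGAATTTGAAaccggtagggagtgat
ASPM (chr1:197146670-197146789, - strand): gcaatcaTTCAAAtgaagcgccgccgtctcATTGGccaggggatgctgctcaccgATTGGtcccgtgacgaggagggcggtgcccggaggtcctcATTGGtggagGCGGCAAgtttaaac
DEPDC1 (chr1:68497083-68497202, - strand): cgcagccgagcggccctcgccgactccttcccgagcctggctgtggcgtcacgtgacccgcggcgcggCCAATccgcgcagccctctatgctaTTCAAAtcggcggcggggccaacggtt
CDC20 (chr1:43358861-43358980, + strand): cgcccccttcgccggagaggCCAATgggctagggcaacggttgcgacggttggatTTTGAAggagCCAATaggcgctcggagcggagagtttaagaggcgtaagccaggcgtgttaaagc
MCM7 (chr7:100101398-100101517, - strand): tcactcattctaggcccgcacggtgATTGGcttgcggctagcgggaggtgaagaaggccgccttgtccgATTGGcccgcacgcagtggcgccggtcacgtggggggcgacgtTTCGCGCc

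HMMR holds 2 CHR matches side by side and 3 CCAAT matches, and ASPM, DEPDC1 and CDC20 hold 1 CHR match each with 3, 1 and 2 CCAAT matches. ASPM also holds 1 E2F match. The helicase gene MCM7 holds 0 CHR matches, 2 CCAAT matches and 1 E2F match. Over the 300 bases, the CHR letters were in 36.7% of the 139 promoters of genes that fell at least 8-fold, in 12.4% of the 896 of genes that rose at least 2-fold, in 9.56% of all promoters of tested genes and in 15.4% of all 27305 promoters of the RefSeq table. CHR and CCAAT stood together in 27.3%, 4.02%, 4.07% and 6.08% of these. CCAAT, with or without CHR, was in 60.4%, 33.1%, 37.1% and 35.7% of them. E-box letters, a further motif searched, were in 9.35%, 8.04%, 10.3% and 7.43%. Of 6 lists searched, the 3 mitotic lists had the highest shares, with CHR in 80% of 20 kinesin and spindle genes, 57.9% of 19 mitotic kinases and cyclins and 50% of 22 kinetochore genes. In the replication lists CHR was in 5% of 20 origin genes and 3.57% of 28 fork genes, while E2F letters were in 60% and 71.4% of them, against 20.6% of the tested and 13.1% of all promoters. The AP-1 letters were in 0% of the 139 promoters, 8.93% of the 896, 4.45% of the tested and 7.76% of all. Among the 15 largest decreases, 13 were searched in the 120 bases before the start. A CHR match stood in 5 of these (HMMR, ASPM, NCAPG, DEPDC1 and CDC20), a CCAAT match alone in 3 (KIF14, CENPF and KIF20B), and 5 held 0 matches of the CHR, CCAAT and E2F letters (BRCA2, MYBL2, CENPE, NUF2 and AURKB). No share over all promoters was counted in those 120 bases. The shares and matches given are a description of letters, with no measurement of binding.

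Of 28 p53 target genes 22 rose and 1 fell (median 1.07), beside 18.3% higher and 17.4% lower of all genes tested. TP53I3, a p53-induced oxidoreductase, had 64.1 and 76.7 CPM in the shCSN5 libraries, against 9.999 and 9.32 CPM in the scramble libraries. BTG2, an antiproliferative p53 target, had 293 and 262 CPM in the shCSN5 libraries, against 68.8 and 69.4 CPM in the scramble libraries. Both shCSN5 libraries were above both scramble libraries in each, by 2.87 ± 0.17 and 2.0 ± 0.13 (edgeR adjusted p = 0.00023 and 0.00026). MDM2, a ubiquitin ligase and p53 target, was at 239 and 187 CPM with shCSN5, against 115 and 110.1 CPM with scramble (0.92 ± 0.15, edgeR adjusted p = 0.0068, a call lost when either scramble library was left out), and the death receptor FAS at 21.1 and 15.1 CPM with shCSN5, against 3.26 and 3.62 CPM with scramble (2.40). GDF15, a secreted stress cytokine, was raised in both libraries but unevenly, at 2047 and 4494 CPM with shCSN5, against 164 and 163 CPM with scramble (4.32 ± 0.38). PLK2, a kinase that p53 induces, was at 209 and 169 CPM with shCSN5, against 39.6 and 44.5 CPM with scramble (2.17). The list's calls numbered 14 higher without scramble 1, 13 without scramble 2 and 26 without shCSN5 1. Of 14 BCL2 family genes 7 rose and 1 fell, and the counts were 3 and 1 without scramble 1 and 7 and 5 without shCSN5 2. BMF, a pro-apoptotic BH3-only protein, was at 131 and 136 CPM with shCSN5, against 35.7 and 34 CPM with scramble (1.94 ± 0.13, edgeR adjusted p = 0.00034), and BBC3, which encodes the BH3-only protein PUMA, at 8.98 and 18 CPM with shCSN5, against 4.44 and 4.42 CPM with scramble (1.61). BCL2, the founding survival gene of the family, was low in all libraries, at 0.88 and 1.25 CPM with shCSN5, against 3.39 and 2.78 CPM with scramble (-1.53 ± 0.26, edgeR adjusted p = 0.0075).

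Of all genes tested 18.3% rose and 17.4% fell. Of 29 NF-kB targets, cytokines and chemokines on the list 20 were tested, of which 13 rose and 0 fell, and the other 9 were too low in all libraries. The median of those tested was 1.09, and 6 were called higher without scramble 1 and 8 without scramble 2. Besides TNFSF15, the cytokine IL32 was at 19.99 and 23.9 CPM with shCSN5, against 5.91 and 4.97 CPM with scramble (2.01 ± 0.19, edgeR adjusted p = 0.00095), the survival ubiquitin ligase BIRC3 at 17.7 and 14.2 CPM with shCSN5, against 5.18 and 5.32 CPM with scramble (1.60) and the NF-kB inhibitor TNFAIP3 at 9.97 and 9.93 CPM with shCSN5, against 3.07 and 2.02 CPM with scramble (1.96). Of 12 tested growth factors of 25 on the list 8 rose and 1 fell. VEGFA, the vascular endothelial growth factor, was at 129 and 135 CPM with shCSN5, against 56.3 and 54 CPM with scramble (1.26 ± 0.13, edgeR adjusted p = 0.0012). Of 13 tested metalloproteinases and inhibitors of 20, 8 rose and 1 fell. MMP7, known as matrilysin, was at 474 and 448 CPM with shCSN5, against 24.6 and 23.2 CPM with scramble (4.27 ± 0.13, edgeR adjusted p = 0.00015). The 1 that fell was MMP16, a membrane-bound metalloproteinase, at 4.84 and 4.45 CPM with shCSN5, against 49.9 and 53.4 CPM with scramble (-3.47 ± 0.17). Members left untested could not have been called lower, so these counts describe the transcripts detected and not the families.

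Among 25 interferon-stimulated genes 3 rose and 6 fell, beside 18.3% higher and 17.4% lower of all genes tested. OAS3, an antiviral enzyme, was at 6.97 and 6.99 CPM with shCSN5, against 41 and 43.3 CPM with scramble (-2.59 ± 0.16, edgeR adjusted p = 0.00024), and the transcription factor IRF1 at 29 and 29.7 CPM with shCSN5, against 5.56 and 5.67 CPM with scramble (2.38 ± 0.16). Of 15 antigen presentation genes 7 rose and 1 fell, among them B2M, the shared light chain of MHC class I, at 385 and 304 CPM with shCSN5, against 174 and 168 CPM with scramble (1.01 ± 0.15, edgeR adjusted p = 0.0043), and 3 were called higher without scramble 1. The interferon counts were 10 higher and 7 lower without shCSN5 1, and 9 higher and 11 lower without shCSN5 2.

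The androgen axis did not move as a block, and its counts stand beside 18.3% higher and 17.4% lower of all genes tested. KLK3, which encodes PSA and is induced by androgen, stood at 2651 and 2871 CPM in the shCSN5 libraries, against 3312 and 3413 CPM in the scramble libraries. The groups did not overlap, and the change did not pass the test (-0.28 ± 0.11, edgeR adjusted p = 0.083). Of 28 androgen-induced genes 9 rose and 7 fell with a median of -0.03, and the counts were 3 and 2 without scramble 1, 11 and 13 without shCSN5 1, and 11 and 12 with the GC correction. STEAP4, a metalloreductase, was at 15 and 11 CPM with shCSN5, against 1.95 and 1.7 CPM with scramble (2.83 ± 0.24, edgeR adjusted p = 0.00064), and TMPRSS2, a serine protease of the luminal surface, at 675 and 673 CPM with shCSN5, against 369 and 373 CPM with scramble (0.86, a call lost when either scramble library was left out). Of 14 lineage factors 4 rose and 4 fell, 3 and 1 without scramble 1. KLF5, a zinc finger factor of epithelial cells, rose, at 48.6 and 40.8 CPM with shCSN5, against 7.79 and 8.21 CPM with scramble (2.48 ± 0.17, edgeR adjusted p = 0.00036). FOXA1, a pioneer transcription factor, was at 395 and 357 CPM with shCSN5, against 340.1 and 333 CPM with scramble and was not called (0.16 ± 0.11). Both kept their signs when either shCSN5 library was left out. KLK3 was at -0.22 and -0.34 and FOXA1 at 0.10 and 0.24 without shCSN5 1 and 2.

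Many secretory luminal markers and steroid-metabolizing enzymes rose, where 18.3% of all genes tested rose and 17.4% fell. Of 13 luminal prostate markers 8 rose and 1 fell (median 0.97), and 9 rose and 4 fell without shCSN5 2 (median 0.63). ACP3, prostatic acid phosphatase, stood at 308 and 250.3 CPM in the shCSN5 libraries, against 71.6 and 70.9 CPM in the scramble libraries. AGR2, a disulfide isomerase of secretory cells, stood at 970.0 and 744 CPM in the shCSN5 libraries, against 265 and 267 CPM in the scramble libraries. MSMB, the secreted beta-microseminoprotein, was low, at 7.37 and 6.09 CPM with shCSN5, against 1.02 and 0.348 CPM with scramble. Each was higher in both shCSN5 libraries, by 1.97 ± 0.15, 1.69 ± 0.15 and 3.27 ± 0.41 (edgeR adjusted p = 0.00043, 0.00085 and 0.0025). Of 20 genes of androgen and steroid metabolism 10 rose and 0 fell (median 0.70), with 6 higher without scramble 1 and 15 without shCSN5 1. The UGT2B enzymes, which inactivate androgens by glucuronidation, were among them. UGT2B28 was at 98.9 and 90.8 CPM with shCSN5, against 7.19 and 8.28 CPM with scramble (3.62 ± 0.17, edgeR adjusted p = 0.00015), UGT2B11 at 575 and 452 CPM with shCSN5, against 61.9 and 68.2 CPM with scramble (2.98) and UGT2B17 at 566 and 445 CPM with shCSN5, against 192 and 193 CPM with scramble (1.39). UGT2B15 was at 166 and 134 CPM with shCSN5, against 118 and 119.6 CPM with scramble and did not pass (0.33 ± 0.15). Its change was 0.18 and 0.48 without shCSN5 1 and 2. The UGT2B genes are close copies of each other, and how reads were shared among them is not given, so their separate values are uncertain.

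Keratin and hemidesmosome genes of stressed or basal epithelium were mostly higher where detected, with 7 called higher and 0 lower of 11 tested among 18. A member can pass the count filter through the shCSN5 libraries alone, and the 7 left untested could not have been called lower. The keratin counts therefore describe the transcripts detected and not the family. The counts in this paragraph stand beside 18.3% higher and 17.4% lower of all genes tested. KRT80, a keratin, was at 21.2 and 26.3 CPM with shCSN5, against 2.27 and 2.16 CPM with scramble (3.42 ± 0.20, edgeR adjusted p = 0.00022), and LAMA3, the alpha chain of laminin, at 357 and 335 CPM with shCSN5, against 101 and 100.2 CPM with scramble (1.78 ± 0.12). The defining basal marker KRT5 had no count. The luminal keratin KRT8 was at 1084 and 1671 CPM with shCSN5, against 707 and 699 CPM with scramble (0.97). Of 21 junction genes 6 rose and 1 fell, among them the tight junction protein OCLN at 125 and 96.8 CPM with shCSN5, against 27.1 and 27.4 CPM with scramble (2.02 ± 0.17, edgeR adjusted p = 0.00066) and the cadherin CDH1 at 1399.7 and 1180.2 CPM with shCSN5, against 804 and 812 CPM with scramble (0.67, a call lost when either scramble library was left out). The counts were 3 and 0 without scramble 1, 17 and 4 without shCSN5 1, 14 and 6 without shCSN5 2 and 14 and 3 with the GC correction. Of 10 mesenchymal genes 2 rose and 2 fell, 2 and 1 without either scramble library, 2 and 5 without shCSN5 1, and 3 and 6 without shCSN5 2 or with the GC correction. VIM, vimentin, was at 24.1 and 24.2 CPM with shCSN5, against 5.81 and 6.44 CPM with scramble (1.98 ± 0.16, edgeR adjusted p = 0.00059), and FN1, fibronectin, at 698 and 607 CPM with shCSN5, against 1579.6 and 1603 CPM with scramble (-1.29 ± 0.12).

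**Figure D3:**
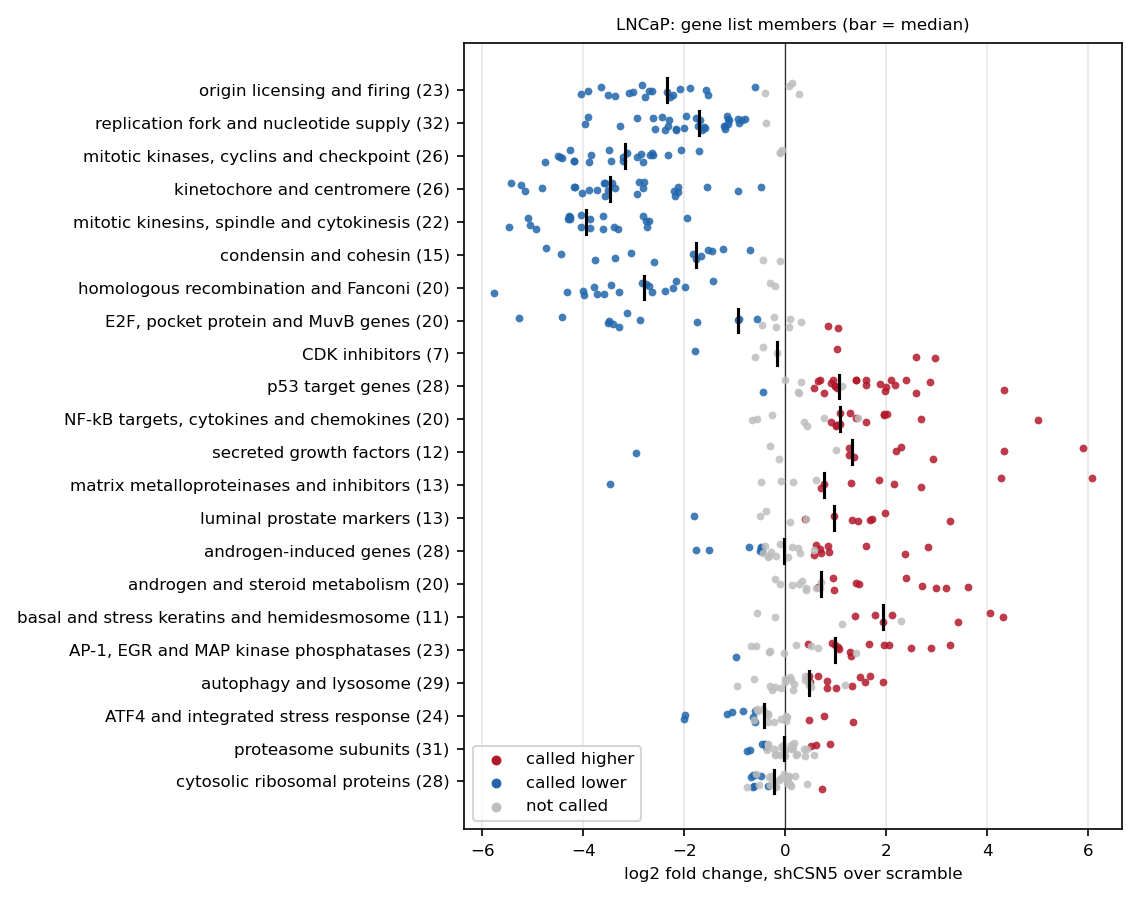
Log2 fold change of shCSN5 over scramble in LNCaP (x axis) for each tested member of 22 gene lists (rows, number tested in brackets). Red points were called higher, blue lower and grey not called at adjusted p under 0.05, and black bars are list medians. The mitotic and replication lists sit to the left of 0, and the p53, secreted factor, luminal and keratin lists mostly to the right.

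Among feedback and immediate-early genes of signalling more rose than fell. The counts in this paragraph stand beside 18.3% higher and 17.4% lower of all genes tested. Of 23 AP-1, EGR and MAP kinase phosphatase genes 13 rose, 1 fell and 9 were not called. Their median was 0.99, and 0.61 without shCSN5 2. Without scramble 1 the median was 0.90. SPRY4, a feedback inhibitor of receptor tyrosine kinase signalling, was at 109.7 and 103 CPM with shCSN5, against 10.9 and 11.1 CPM with scramble (3.27 ± 0.15, edgeR adjusted p = 0.00015). The MAP kinase phosphatases DUSP10 and DUSP5 were at 53 and 54.1 CPM with shCSN5, against 9.39 and 9.64 CPM with scramble (2.49) and 11.8 and 12.5 CPM with shCSN5, against 1.69 and 1.57 CPM with scramble (2.89). ATF3, a stress-induced transcription factor, was at 144 and 122 CPM with shCSN5, against 31.8 and 31.8 CPM with scramble (2.06 ± 0.15). Of 14 targets of TGF-beta, SMAD and YAP signalling 7 rose and 1 fell, 4 and 0 without scramble 1, and 8 and 5 without shCSN5 1. Of 8 Wnt targets 2 rose and 0 fell. ID2 and ID1, inhibitors of basic helix-loop-helix factors that SMAD signals induce, were at 83.1 and 81.3 CPM with shCSN5, against 9.04 and 9.67 CPM with scramble (3.13 ± 0.15, edgeR adjusted p = 0.00016) and at 123 and 208 CPM with shCSN5, against 22 and 20.5 CPM with scramble (2.96 ± 0.27, edgeR adjusted p = 0.00083). IGFBP3, a secreted binding protein of insulin-like growth factors, was at 219 and 193 CPM with shCSN5, against 27.7 and 26.9 CPM with scramble (2.92 ± 0.14). Of 14 IGF and insulin signalling genes on its list 4 rose and 1 fell, and 5 rose and 7 fell without shCSN5 2.

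Stress lists gave counts that depended on the libraries, and of all genes tested 18.3% rose and 17.4% fell. Of 16 NRF2 targets 6 rose and 2 fell (median 0.42), 3 and 0 without scramble 1, 10 and 5 without shCSN5 1, and 8 and 8 without shCSN5 2 (median 0.19). TXNRD1, a thioredoxin reductase, was at 2039 and 1619.6 CPM with shCSN5, against 458 and 462 CPM with scramble (1.99 ± 0.14, edgeR adjusted p = 0.0004), and HMOX1, haem oxygenase 1, at 81.7 and 101 CPM with shCSN5, against 19.9 and 19 CPM with scramble (2.24). Of 24 ATF4 and integrated stress response genes 3 rose and 8 fell, 1 and 4 without scramble 1 or scramble 2, 3 and 19 without shCSN5 1, 6 and 18 without shCSN5 2, and 3 and 14 with the GC correction. PHGDH, the first enzyme of serine synthesis, was at 147 and 169.9 CPM with shCSN5, against 639.7 and 631 CPM with scramble (-2.0 ± 0.13, edgeR adjusted p = 0.00026), and STC2, a secreted glycoprotein, at 18.1 and 22.6 CPM with shCSN5, against 81.6 and 79.1 CPM with scramble (-1.98). DDIT3, which encodes the stress factor CHOP, was higher, at 42.1 and 32.7 CPM with shCSN5, against 15.2 and 14.1 CPM with scramble (1.35). Of 13 heat shock genes 4 rose and 0 fell, and the counts were 0 and 0 without either scramble library, 8 and 3 without either shCSN5 library and 6 and 1 with the GC correction. Of 18 endoplasmic reticulum chaperones 3 rose and 6 fell, but 2 and 0 without either scramble library, 5 and 12 without shCSN5 1, 8 and 10 without shCSN5 2 and 4 and 11 with the GC correction. Of 31 proteasome subunits 3 rose and 5 fell, a share below that of all genes, and the balance turned with the library left out, with 9 higher and 16 lower without shCSN5 1 and 16 higher and 11 lower without shCSN5 2. Of 28 ribosomal protein genes 1 rose and 7 fell, likewise a smaller called share than the 35.7% of all genes. Both lists had no call without scramble 1 or without scramble 2, and the ribosomal proteins had 5 higher and 21 lower without shCSN5 1. Of 21 ribosome biogenesis genes 0 rose and 7 fell, FBL, a nucleolar methyltransferase, to 195 and 183 CPM with shCSN5, against 389.5 and 398 CPM with scramble (-1.06), and 2 fell without scramble 1, 18 without shCSN5 1 and 14 with the GC correction.

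The metabolic lists stand beside 18.3% higher and 17.4% lower among all genes tested. Of 25 hypoxia and glycolysis genes 5 rose and 8 fell, and the counts were 7 and 13 without either shCSN5 library and 8 and 11 with the GC correction. LDHA, lactate dehydrogenase A, was at 648 and 503 CPM with shCSN5, against 1378 and 1375 CPM with scramble (-1.26 ± 0.15, edgeR adjusted p = 0.002), and ENO1, enolase, at 1753 and 1907 CPM with shCSN5, against 3498 and 3522 CPM with scramble (-0.94), while EGLN3 of the same list was among the largest increases. FADS2 and FADS1, the desaturases of polyunsaturated fatty acids, were at 233 and 304 CPM with shCSN5, against 1196 and 1246 CPM with scramble (-2.19 ± 0.16, edgeR adjusted p = 0.00039) and at 76.5 and 64.5 CPM with shCSN5, against 241 and 238 CPM with scramble (-1.77). FASN, the fatty acid synthase, differed between the shCSN5 libraries, at 244 and 823 CPM with shCSN5, against 1122 and 1089.5 CPM with scramble, and was not called (-1.05 ± 0.50, edgeR adjusted p = 0.15). Its change was -0.42 without shCSN5 1 and -2.18 without shCSN5 2. Of 22 cholesterol synthesis genes 3 rose and 8 fell, EBP, a sterol isomerase, to 53.1 and 51 CPM with shCSN5, against 145 and 147 CPM with scramble (-1.49), and the counts were 0 and 2 without either scramble library and 6 and 13 without shCSN5 1. Of 15 genes of fatty acid synthesis 4 rose and 5 fell, but 0 and 5 without scramble 1. Of 26 nuclear genes of the respiratory chain 4 rose and 3 fell, but 10 and 12 without shCSN5 1 and 15 and 9 without shCSN5 2. Of 13 mitochondrially encoded genes 1 rose and 0 fell, but 2 and 6 without shCSN5 1, 12 and 1 without shCSN5 2 and 1 and 4 with the GC correction, so these 2 lists have no direction that holds across libraries. Of 29 autophagy and lysosome genes 11 rose and 0 fell (median 0.46). The counts were 7 and 0 without scramble 1, 6 and 0 without scramble 2, 20 and 6 without shCSN5 1, 16 and 7 without shCSN5 2 (median 0.26), and 19 and 3 with the GC correction. NPC1, the lysosomal cholesterol exporter, was at 333 and 306 CPM with shCSN5, against 82.4 and 84.2 CPM with scramble (1.94 ± 0.12, edgeR adjusted p = 0.00025). GABARAPL2, of the ATG8 family, was at 267 and 237 CPM with shCSN5, against 86.7 and 81.9 CPM with scramble (1.58), and WIPI1, which binds forming autophagosomes, at 63.6 and 50.5 CPM with shCSN5, against 18.1 and 17.5 CPM with scramble (1.68).

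NTS, the neuropeptide neurotensin, had 3.26 and 2.22 CPM and 151 counts in all in the shCSN5 libraries, against 0 in both scramble libraries, at least 53.4-fold higher against a floor of 3 counts over the scramble group. Of 20 genes of the neuroendocrine list 7 were tested, of which 1 rose and 1 fell. Over all genes tested 18.3% rose and 17.4% fell.

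The 3 differences that follow share the 4 LNCaP libraries. The effect of shCSN5 in LNCaP differed from that in PC3, counted in the same table, for 4136 of 17152 genes (24.1%), 2247 (13.1%) above and 1889 (11%) below. Scaled by total counts, which moved the median difference to -0.17, 1578 were above and 2482 below, so the balance of directions depends on the scaling. The count was 1916 without LNCaP scramble 1, 1990 without LNCaP scramble 2, 2568 without PC3 shCSN5 1 and 2424 without PC3 shCSN5 2. On its own PC3 had 16.7% of genes called. Of the 10 COP9 signalosome subunits 2 lay below PC3 and 0 above. The part of the depth of COPS5 knockdown in each line in these differences was not tested. Cell division genes fell further in LNCaP. Of the 26 mitotic kinases and cyclins, 23 lay below PC3 and 1 above, and of the 26 kinetochore genes 25 lay below and 0 above. In PC3 shCSN5 cells the medians of these lists were -0.56 and -0.25. HMMR changed by -5.05 ± 0.20 in LNCaP and 0.11 ± 0.13 in PC3 (difference -5.10 ± 0.23, edgeR adjusted p = 1.6e-05). The 5 named genes furthest below PC3 were BRCA2, KIF14, CENPE, KNL1 and KIF20B, with differences from -5.14 to -6.56. Those furthest above were ADGRF1, STOM, LHFPL2, EMP1 and TNC, from 3.98 to 5.78. EMP1, a membrane protein, was at 20.2 and 16.2 CPM with shCSN5, against 1.92 and 1.98 CPM with scramble in LNCaP, and TNC encodes the matrix protein tenascin-C.

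Of the p53 targets 16 of 28 lay above PC3 and 1 below, beside 13.1% above and 11% below of all genes compared. TP53I3 changed by 2.87 ± 0.17 in LNCaP and -0.27 ± 0.17 in PC3 (difference 3.20 ± 0.24, edgeR adjusted p = 0.0001). GDF15 changed by 4.32 ± 0.38 in LNCaP and 3.53 ± 0.29 in PC3, and this difference did not pass (edgeR adjusted p = 0.29, and 0.0235 without LNCaP shCSN5 1, difference 0.86 ± 0.53). Of 24 ATF4 genes 22 lay below PC3 and 0 above. PHGDH changed by -2.0 ± 0.13 in LNCaP and 1.03 ± 0.17 in PC3 (difference -2.97 ± 0.22, edgeR adjusted p = 0.0001). FN1 changed by -1.29 ± 0.12 in LNCaP and 1.03 ± 0.085 in PC3 (difference -2.26 ± 0.14, edgeR adjusted p = 3.8e-05).

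In C4-2, where 32% of genes tested were called for shCSN5, the effect differed from LNCaP for 1913 of 15801 genes (12.1%), 775 (4.9%) above and 1138 (7.2%) below. These libraries came from another count table, so the line and the table cannot be told apart. The count was 644 without LNCaP scramble 1, 649 without LNCaP scramble 2, 4540 without LNCaP shCSN5 2, 830 without C4-2 shCSN5 1 and 904 without C4-2 shCSN5 2, and 831 with the replicate number as a block. The list medians in C4-2 were -1.57 for mitotic kinases and -1.51 for origin genes, and 22 of 26 and 13 of 23 of these genes lay further down in LNCaP. Of the 10 COP9 signalosome subunits 3 lay below C4-2 and 0 above, and the part of the depth of COPS5 knockdown was not tested. BRCA2 changed by -5.76 ± 0.25 in LNCaP and -1.61 ± 0.11 in C4-2 (difference -4.21 ± 0.23, edgeR adjusted p = 0.00018). KNL1, KIF14, KIF20B and CENPE followed, at differences from -3.65 to -4.04. The genes furthest above C4-2 were IGFBP3, ID1, LPXN, RHOU and ID2, with differences from 2.81 to 4.53. IGFBP3 changed by 2.92 ± 0.14 in LNCaP and -1.67 ± 0.10 in C4-2 (difference 4.53 ± 0.14, edgeR adjusted p = 1.9e-05). IGFBP3 thus rose in LNCaP and fell in C4-2. ID1 changed by 2.96 ± 0.27 in LNCaP and -0.57 ± 0.12 in C4-2 (difference 3.48 ± 0.32), and ID2 by 3.13 ± 0.15 in LNCaP and 0.26 ± 0.12 in C4-2 (difference 2.81 ± 0.14). LPXN, a focal adhesion protein, was at 113 and 91.7 CPM with shCSN5, against 12.7 and 12.4 CPM with scramble in LNCaP (3.03), and its change in C4-2 was -0.23 ± 0.15. RHOU, a small GTPase, was at 174 and 152 CPM with shCSN5, against 41.7 and 38.2 CPM with scramble in LNCaP (2.03), and changed by -1.07 ± 0.11 in C4-2. The p53 targets, with a median of 1.19 in C4-2, differed in 3 of 28 (1 above, 2 below), and UGT2B17 rose further in C4-2, by 4.44 ± 0.27 (difference -3.11 ± 0.30, edgeR adjusted p = 0.00091).

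**Figure D4:**
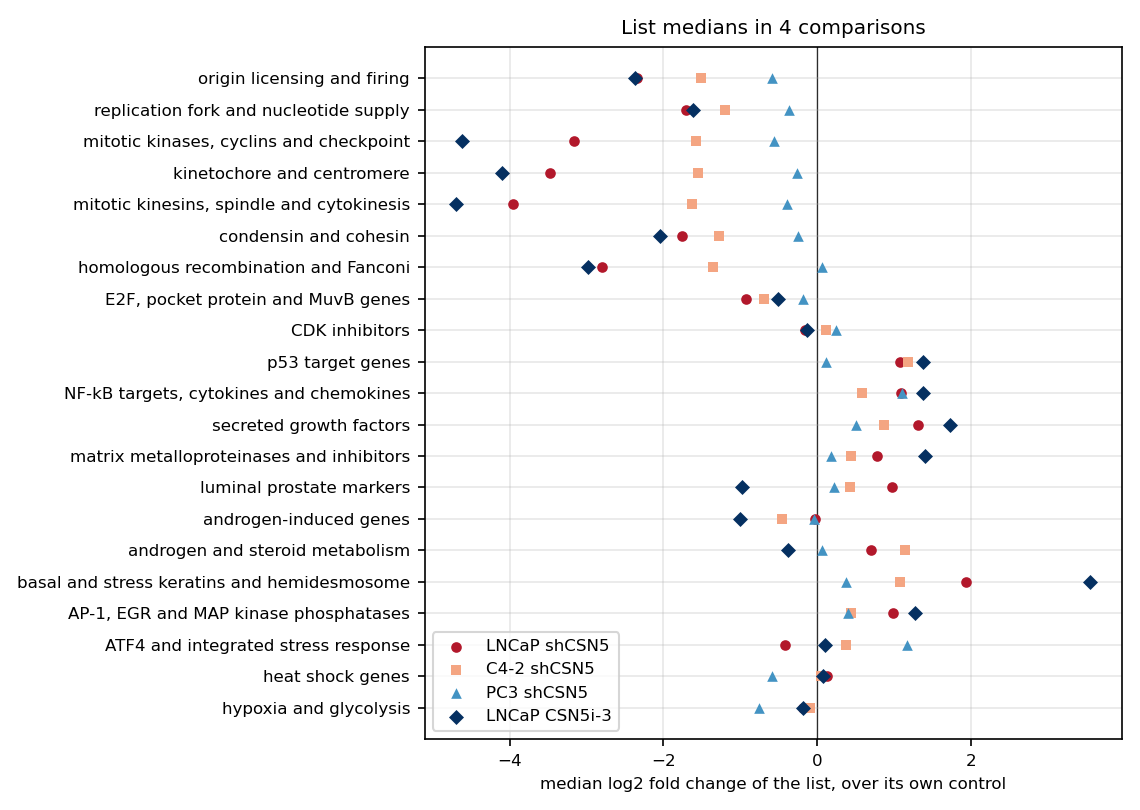
Median log2 fold change over its own control (x axis) of the list members tested in each comparison, for 21 lists (rows). Red circles are shCSN5 in LNCaP, light squares shCSN5 in C4-2, blue triangles shCSN5 in PC3 and dark diamonds CSN5i-3 in LNCaP. The mitotic lists lie lowest in LNCaP under both treatments, and the luminal and steroid lists lie above 0 with shCSN5 and below 0 with CSN5i-3.

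Against CSN5i-3 in the same line the shCSN5 effect differed for 3803 of 17846 genes (21.3%), 2585 (14.5%) above and 1218 (6.83%) below. The 2 treatments were counted in separate tables, joined by symbol, and the table and the treatment cannot be told apart. Without 1 of the scramble libraries the count was 1503 (scramble 1) or 1582 (scramble 2), without shCSN5 2 it was 7862, and without 1 of the inhibitor experiment's libraries it was 1501 and 1666 (CSN5i-3 1 and 2) or 1983 and 2292 (DMSO 1 and 2). CSN5i-3 acts on the protein, and the COPS5 transcript changed by -4.50 ± 0.26 with shCSN5 and 0.09 ± 0.079 with CSN5i-3. On its own CSN5i-3 changed 52.5% of genes tested, beside 35.7% for shCSN5. The list medians with CSN5i-3 were -4.62 for mitotic kinases and cyclins, -4.10 for kinetochore genes, -4.69 for kinesins and spindle genes and -2.04 for condensin and cohesin. With shCSN5, 17 of 26 mitotic kinases and cyclins lay above the inhibitor effect and 1 below, and 13 of 25 kinetochore genes lay above and 2 below. Of 22 kinesins and spindle genes 9 lay above and 2 below, and of 15 condensin and cohesin genes 3 lay above and 2 below, with a median difference of -0.31. KIF20A, a kinesin of cytokinesis, changed by -3.86 ± 0.16 with shCSN5 and -7.42 ± 0.15 with CSN5i-3 (difference 3.64 ± 0.23, edgeR adjusted p = 0.0001).

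The androgen-related lists parted the treatments, beside 14.5% above and 6.83% below of all genes compared. Of 27 androgen-induced genes 19 lay above the inhibitor effect with shCSN5 and 1 below, of 13 luminal markers 8 and 0, and of 20 steroid metabolism genes 12 and 2. KLK3 changed by -0.28 ± 0.11 with shCSN5 and -2.88 ± 0.049 with CSN5i-3 (difference 2.67 ± 0.11, edgeR adjusted p = 2.9e-05). ACP3 rose with shCSN5 (1.97) and fell with CSN5i-3 (-1.27 ± 0.069), a difference of 3.32 ± 0.18 (edgeR adjusted p = 4.8e-05). UGT2B17 did likewise (1.39 and -1.76 ± 0.068, difference 3.23 ± 0.19, edgeR adjusted p = 5.7e-05). KLF5 changed by -0.46 ± 0.15 with CSN5i-3 (difference 3.02 ± 0.22, edgeR adjusted p = 0.00015). MMP7 changed by 4.27 ± 0.13 with shCSN5 and 0.79 ± 0.16 with CSN5i-3 (difference 3.55 ± 0.18, edgeR adjusted p = 4.4e-05).

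**Figure D5:**
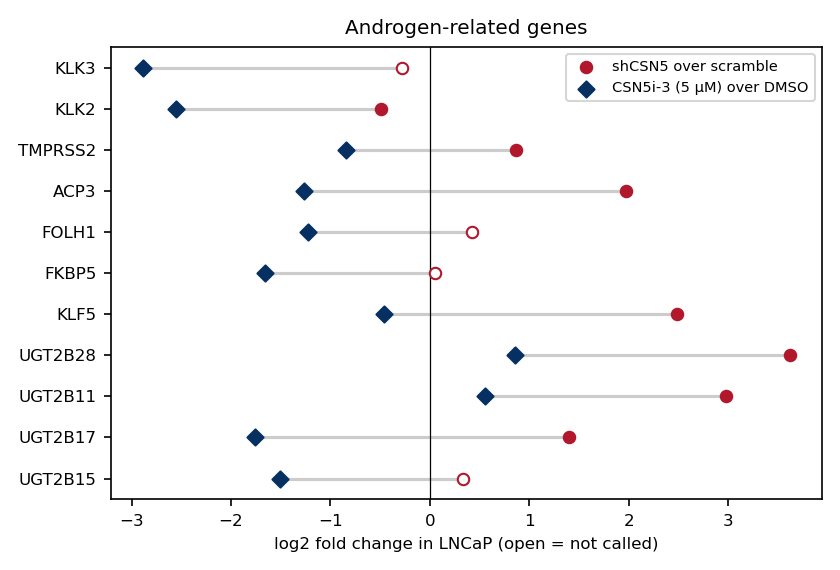
Log2 fold change in LNCaP (x axis) of 11 androgen-related genes (rows), as red circles for shCSN5 over scramble and dark diamonds for CSN5i-3 at 5 µM over DMSO, with open symbols where the change was not called. In every gene shown the red circle lies to the right of the diamond.

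Among the genes furthest above the inhibitor effect under the naming rule were PLA2G2A, RDH10, KIF20A and SCD5, with differences from 3.53 to 4.50. PLA2G2A, a secreted phospholipase, was at 50.7 and 44.2 CPM with shCSN5, against 7.54 and 7.97 CPM with scramble in the shRNA experiment. After COPS5, those furthest below were LAMB3, ZNF292, FLNA and CCN1, from -3.21 to -3.59. FLNA, the actin crosslinker filamin A, was at 148 and 343 CPM with shCSN5, against 411 and 381 CPM with scramble (not called, -0.69). Its change was -0.20 without shCSN5 1 and -1.42 without shCSN5 2. LAMB3, a chain of laminin, was at 22 and 31.3 CPM with shCSN5, against 10.6 and 9.91 CPM with scramble. Of 14318 genes tested in both treatments, 1525 were called higher in both and 1741 lower in both. Opposite calls were counted only where the difference between the effects was called as well. Under that stricter rule 250 rose with shCSN5 and fell with CSN5i-3, and 128 fell with shCSN5 and rose with CSN5i-3. The same-way and opposite counts therefore cannot be weighed against each other. The same counts were 1321, 1332, 50 and 56 of 14068 for C4-2 and 386, 336, 107 and 163 of 13234 for PC3.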

How the data were processed

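RNA from shRNA-infected or inhibitor-treated prostate cancer lines was sequenced. The values analysed are counts of reads per gene, deposited by the authors as unnormalized tables with Ensembl identifiers or symbols. Partek is the tool named, per the submitters' processing notes, while aligner, build, annotation and strand setting were not given in the sources used here. Unmapped per-sample columns in the tables used numbered 0.

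From these counts, genes with low counts were removed (filterByExpr, minimum count 10), libraries were scaled by TMM, and edgeR 4.0.16 (R 4.3.3) gave quasi-likelihood F tests with Benjamini-Hochberg adjustment over all genes tested and a threshold of 0.05, with 2 residual degrees of freedom in the LNCaP comparison. Differences between effects were interaction terms, fitted within 1 table for PC3, after joining by Ensembl identifier for C4-2, and by 20863 symbols found once in each table for the inhibitor. GC content came from GENCODE for 97.7% of the genes tested. On simulated counts for the LNCaP comparison, 68% of genes changed by 1 on the log2 scale and 99% of those changed by 2 were recovered among 14920 genes. In that simulation 22 unchanged genes were called. For simulated differences between effects, 19% (PC3), 41% (C4-2) and 34% (CSN5i-3) of those of 1 were recovered. Of those of 2, 77%, 86% and 93% were recovered, and 12 unchanged genes were called in each. Depth was 27952055 to 30876709 counts, and floors of 3 counts cover counting error only.

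The members and gene lists were chosen with earlier results of these data known. Genes named are COPS5, the 15 largest changes each way averaging 5 CPM or more without overlap of groups, up to 3 higher, 3 lower and 2 uncalled members of each list (any member of a list of at most 20), and the 5 largest differences each way. ATF3, BIRC3, CDC6, CDH1, CDK1, CDT1, CUL4A, FAS, FBXO5, MDM2, PLK1, PLK2, TNFAIP3, UGT2B17, VEGFA and NTS, and the genes compared between experiments outside those 5, were chosen after their values were seen. A few genes that the rule names are not reported here. Alternatives were DESeq2 1.42.0, other scalings, no filter, a replicate block, a spread shared with PC3, each library left out and, added after the data were seen, a GC correction and a block with the C4-2 numbers crossed.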

Additional observations from a re-analysis of the deposited data

Results flagged for a closer look

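The effect of shCSN5 over scramble differed between LNCaP and PC3, by the interaction term in edgeR, for 4136 genes, and between LNCaP and C4-2 for 1913 genes. With 1 library left out these counts were 1916 to 4930 for PC3 and 644 to 4540 for C4-2, and the C4-2 count was 831 with the replicate number as a block. The part of the depth of COPS5 knockdown in each line in these differences was not tested. Below are the named genes whose difference between cell lines passed that test, as log2 differences of the LNCaP effect minus that of the other line.

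Above PC3 were ADGRF1 at 5.78, STOM at 4.59, LHFPL2 at 4.36, EMP1 at 4.13, TNC at 3.98 and the p53 target TP53I3 at 3.20. Below PC3 were genes of mitosis and recombination, with BRCA2 at -6.56, KIF14 at -5.49, CENPE at -5.46, KNL1 at -5.38, KIF20B at -5.14 and HMMR at -5.10. The serine synthesis gene PHGDH, at -2.97, and the fibronectin gene FN1, at -2.26, were also below PC3.

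Above C4-2 were IGFBP3 at 4.53, ID1 at 3.48, LPXN at 3.20, RHOU at 3.03 and ID2 at 2.81. Below C4-2 were BRCA2 at -4.21, KNL1 at -4.04, KIF14 at -3.90, KIF20B at -3.75 and CENPE at -3.65, and the androgen-inactivating enzyme UGT2B17 at -3.11. The C4-2 libraries were counted in another table than the LNCaP libraries, and cell line and table cannot be told apart.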

How the results depend on the processing

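Of 114 named genes, 109 were called, and 98 of these were called under all 12 alternatives with a value. None changed direction. The 11 others (CDH1, CDKN1B, COPS2, COPS6, COPS8, CUL4A, CUL5, MDM2, RBL2, TMPRSS2 and UBE2F) lost the call when a scramble library was left out. The genes called in LNCaP numbered 5326, 8627 with the GC correction, 8216 with the GC correction and replicate block, and 2705 with at least a 2-fold change. Leaving out 1 library gave 2085 to 11260. With 1 shCSN5 library left, that library is assumed to vary like the scramble pair. With 1 scramble library left, the spread in the LNCaP comparison comes from the shCSN5 pair alone. For PC3 the count was 4136, and 1916 to 4930 with 1 library left out. For C4-2 it was 1913, and 644 to 4540. For CSN5i-3 it was 3803, and 1501 to 7862. FASN, KLK3, FOXA1, FLNA and UGT2B15 were not called and passed in some alternatives, the GC correction among them.

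With 2 numbers per experiment and nothing in the labels that ties same-numbered libraries, the numbers were not taken as pairs. Deviations of same-numbered libraries of the 2 groups correlated at -0.04 in the LNCaP shRNA experiment, 0.425 in PC3, -0.29 in C4-2 and -0.09 in the inhibitor experiment. With the number as a replicate block, 5430 genes were called in LNCaP, 4662 against PC3, 831 against C4-2 (1823 with the C4-2 numbers crossed, tried after the data were seen) and 2810 against CSN5i-3. DESeq2 called 4940 in LNCaP.

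Each group had 2 libraries, 1 shRNA was used, and the shCSN5 libraries differed with GC content, which limits the precision of changes in GC-rich genes.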
